A study of Mus musculus with 18 samples.

Results

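A set of 8 long non-coding RNAs of the nucleus or of imprinted domains, Malat1, Neat1, Meg3, Rian, Mirg, Kcnq1ot1, Miat and Tug1, were followed through 18 RNA-seq libraries of mouse heart tissue. They are given by name, in a list drawn up with earlier results of these data known, and they are 8 of the 34150 genes in the deposited files. Each of 3 groups, HXP, MI (myocardial infarction) and control, had 6 libraries. HXP is a treatment tried in mice as a model of acute MI, going by the title. What HXP abbreviates, its dose, any operation on the control mice, whether each HXP mouse had an infarct, and strain, sex, age and times remain unstated in the labels used here. Values are FPKM (fragments per kilobase of exon, scaled to the library total), which correct for gene length. Of the 8 RNAs, 5 averaged 0.5 FPKM or more across all 18 libraries and so entered the main test. Mirg, Kcnq1ot1 and Miat lay under that limit and are given by their values and by tests without it.

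Long non-coding RNAs are transcripts that are not translated and act as RNA, many of them inside the nucleus. Malat1 is a very abundant RNA of nuclear speckles, the bodies that store splicing factors, and Neat1 is the scaffold of paraspeckles, bodies built from the RNA-binding proteins Sfpq and Nono among others. Imprinted genes are transcribed from 1 parental copy. Meg3, Rian and Mirg are read in the same direction along the maternal copy of the Dlk1-Dio3 domain, Rian as a host of small nucleolar RNAs and Mirg as a host of microRNAs. Kcnq1ot1 is transcribed from the paternal copy across the gene Kcnq1, opposite to it, and is known for silencing neighbours such as Cdkn1c in cis. Miat was named for a human locus associated with myocardial infarction, and Tug1 is a widely expressed RNA first described in the retina.

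On GRCm38, Meg3 (ENSMUSG00000021268) lies on the plus strand of chromosome 12 from 109541001 to 109571726, Rian (ENSMUSG00000097451) from 109603940 to 109661716, and Mirg (ENSMUSG00000097391) from 109729764 to 109749460. The gap between Meg3 and Rian is 32.2 kb and that between Rian and Mirg 68.05 kb. Malat1 (ENSMUSG00000092341, 5795690 to 5802672) and Neat1 (ENSMUSG00000092274, 5824708 to 5845478) lie 22.04 kb apart on the minus strand of chromosome 19, and each has exons that merge into 1 block. Kcnq1ot1 (ENSMUSG00000101609, minus strand of chromosome 7, 143203458 to 143296549) is a single 93092-base exon that lies 100% inside the span of Kcnq1, nearly all of it over Kcnq1 introns. Tug1 (ENSMUSG00000056579) runs on the minus strand of chromosome 11 from 3639785 to 3649673, and 4.96% of its exon bases overlap exons of Morc2a on the other strand. Miat (ENSMUSG00000097767) is on the minus strand of chromosome 5 from 112213228 to 112229395. The labels do not state whether reads were counted by strand, so reads of an RNA and of its opposite partner cannot be told apart.

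The promoter windows of Meg3, Rian, Mirg and Tug1 are shown because the first 3 lie in 1 domain and moved together, and Tug1 is the other RNA called in the main test below. Each window holds the 250 bases before and 50 after the gene start in RefSeq on GRCm38.p6, and Meg3 has a second start there that is not shown. Capitals mark matches, on either strand, to 4 motifs. These were the TATA box, spelled TATAAA, the cAMP response element, spelled TGACGTCA, the GC box, spelled GGGCGG, and the E-box, which is spelled CACGTG.
Meg3, chr12:109540746-109541045, plus strand: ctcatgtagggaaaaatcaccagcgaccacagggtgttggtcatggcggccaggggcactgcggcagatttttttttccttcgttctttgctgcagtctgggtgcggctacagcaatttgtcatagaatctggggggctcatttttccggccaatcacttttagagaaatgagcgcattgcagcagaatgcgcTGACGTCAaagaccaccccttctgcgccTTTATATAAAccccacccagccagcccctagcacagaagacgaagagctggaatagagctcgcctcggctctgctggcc
Rian, chr12:109603695-109603994, plus strand: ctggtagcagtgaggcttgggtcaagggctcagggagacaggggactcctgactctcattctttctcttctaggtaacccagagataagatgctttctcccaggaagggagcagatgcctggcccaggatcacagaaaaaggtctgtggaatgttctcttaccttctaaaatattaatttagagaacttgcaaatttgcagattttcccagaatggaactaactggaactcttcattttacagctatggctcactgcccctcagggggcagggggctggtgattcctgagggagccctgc
Mirg, chr12:109734731-109735030, plus strand: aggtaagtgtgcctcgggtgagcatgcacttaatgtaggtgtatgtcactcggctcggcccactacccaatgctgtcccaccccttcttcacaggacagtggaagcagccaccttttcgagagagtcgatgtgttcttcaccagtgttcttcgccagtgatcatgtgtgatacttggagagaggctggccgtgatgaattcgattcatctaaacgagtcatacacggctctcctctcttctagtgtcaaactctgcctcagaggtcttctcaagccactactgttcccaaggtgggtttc
Tug1, chr11:3648765-3649064, minus strand: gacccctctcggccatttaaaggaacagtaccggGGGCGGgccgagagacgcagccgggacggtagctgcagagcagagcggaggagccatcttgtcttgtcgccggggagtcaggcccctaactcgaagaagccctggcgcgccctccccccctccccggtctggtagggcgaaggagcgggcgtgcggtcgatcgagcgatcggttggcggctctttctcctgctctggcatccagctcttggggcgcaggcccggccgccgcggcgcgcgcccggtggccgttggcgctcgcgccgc
The Meg3 window held TGACGTCA, a motif present in 1.79% of 32851 RefSeq promoter windows, and the TATA box in both directions, overlapping each other, which 13.6% of windows hold. The Tug1 window held a GC box, which 35.7% of windows share. The Rian and Mirg windows matched none of the 4, and the E-box, present in 7.15% of windows, was in none of those shown. The count of CpG dinucleotides, the sites of DNA methylation, was 13 in the Meg3 window, 0 in that of Rian, 10 in that of Mirg and 37 in that of Tug1, against a median of 7 over all windows. The RefSeq starts of Mirg and Tug1 lie 5217 and 859 bases inside the genes as annotated above, so neither window is the promoter of the coordinates given. The Mirg window spans the hosted microRNA hairpins Mir668 and Mir485. Methylation and factor binding were not measured.

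Small RNAs encoded inside the Dlk1-Dio3 long RNAs are shown because they are what these RNAs are known to host. RefSeq places 14 microRNA hairpins with 26 mature microRNAs inside Mirg, 3 hairpins with 6 mature microRNAs inside Rian, and 2 hairpins with 3 mature microRNAs inside Meg3. Capitals mark the seed, bases 2 to 8.
mmu-miR-770-5p, chr12:109563710-109563731, inside Meg3: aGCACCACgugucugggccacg
mmu-miR-370-3p, chr12:109618305-109618326, inside Rian: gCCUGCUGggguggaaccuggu
mmu-miR-453, chr12:109735669-109735692, inside Mirg: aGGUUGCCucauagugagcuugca
mmu-miR-496a-5p, chr12:109739132-109739152, inside Mirg: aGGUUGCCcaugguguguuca
mmu-miR-134-5p, chr12:109734145-109734166, inside Mirg: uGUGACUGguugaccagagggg
mmu-miR-410-3p, chr12:109743764-109743784, inside Mirg: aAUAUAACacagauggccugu
The Mirg microRNAs miR-453 and miR-496a-5p carry the same seed, and no other seed is shared among the microRNAs hosted by these RNAs. Mature microRNAs were not measured here.

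The 18 libraries held 77.6 to 82.7 M reads each, as recovered from the steps of their values, so counting error was small beside the spread between libraries except for Miat and Mirg. Mitochondrial genes took 20.5% to 45.5% of the reads in HXP hearts, 20.4% to 33.2% in MI hearts and 36.4% to 42.6% in control hearts, which lowers or raises every other FPKM value of a library. MI 4 stood apart in skeletal muscle markers (mean log2(FPKM + 1) of 3.79, next MI library 1.51) and MI 5 in lung epithelium markers (5.03, next 0.13). HXP 6 had the lowest fibroblast markers of all libraries (3.29). Cardiomyocyte markers were high throughout, at 8.70 to 9.49. Numbers in the headers of the tables split the libraries into 3 runs, whose meaning is not stated. In bulk tissue, fewer cells of a type and less RNA per cell cannot be told apart. The labels give 6 samples per group and do not state that each is a separate mouse, so p-values cover only the spread among libraries, which may be technical.

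The levels of the 8 RNAs ran over 4 orders of magnitude on the FPKM scale. Malat1 averaged 257 ± 52.5 FPKM in HXP hearts, 244 ± 55.1 FPKM in MI hearts and 205 ± 33.0 FPKM in control hearts (SD, n = 6 each). Neat1 followed with means of 29.9, 25.0 and 22.8 FPKM in HXP, MI and control hearts. Tug1 (4.39, 4.70 and 3.30 FPKM in the same order) lay above Meg3 and Rian in every group. Mirg and Kcnq1ot1 averaged at most 0.224 FPKM in any group, and Miat at most 0.0243 FPKM. The rank order Malat1, Neat1, Tug1, Meg3, Rian was the same in the mean of each group, and the libraries of Tug1 and Meg3 and of Meg3 and Rian overlapped in HXP and MI hearts. Below these 5, Mirg lay above Kcnq1ot1 in the mean of MI hearts and under it in HXP and control hearts, and the libraries of both overlapped in HXP and MI hearts.

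**Figure D1:**
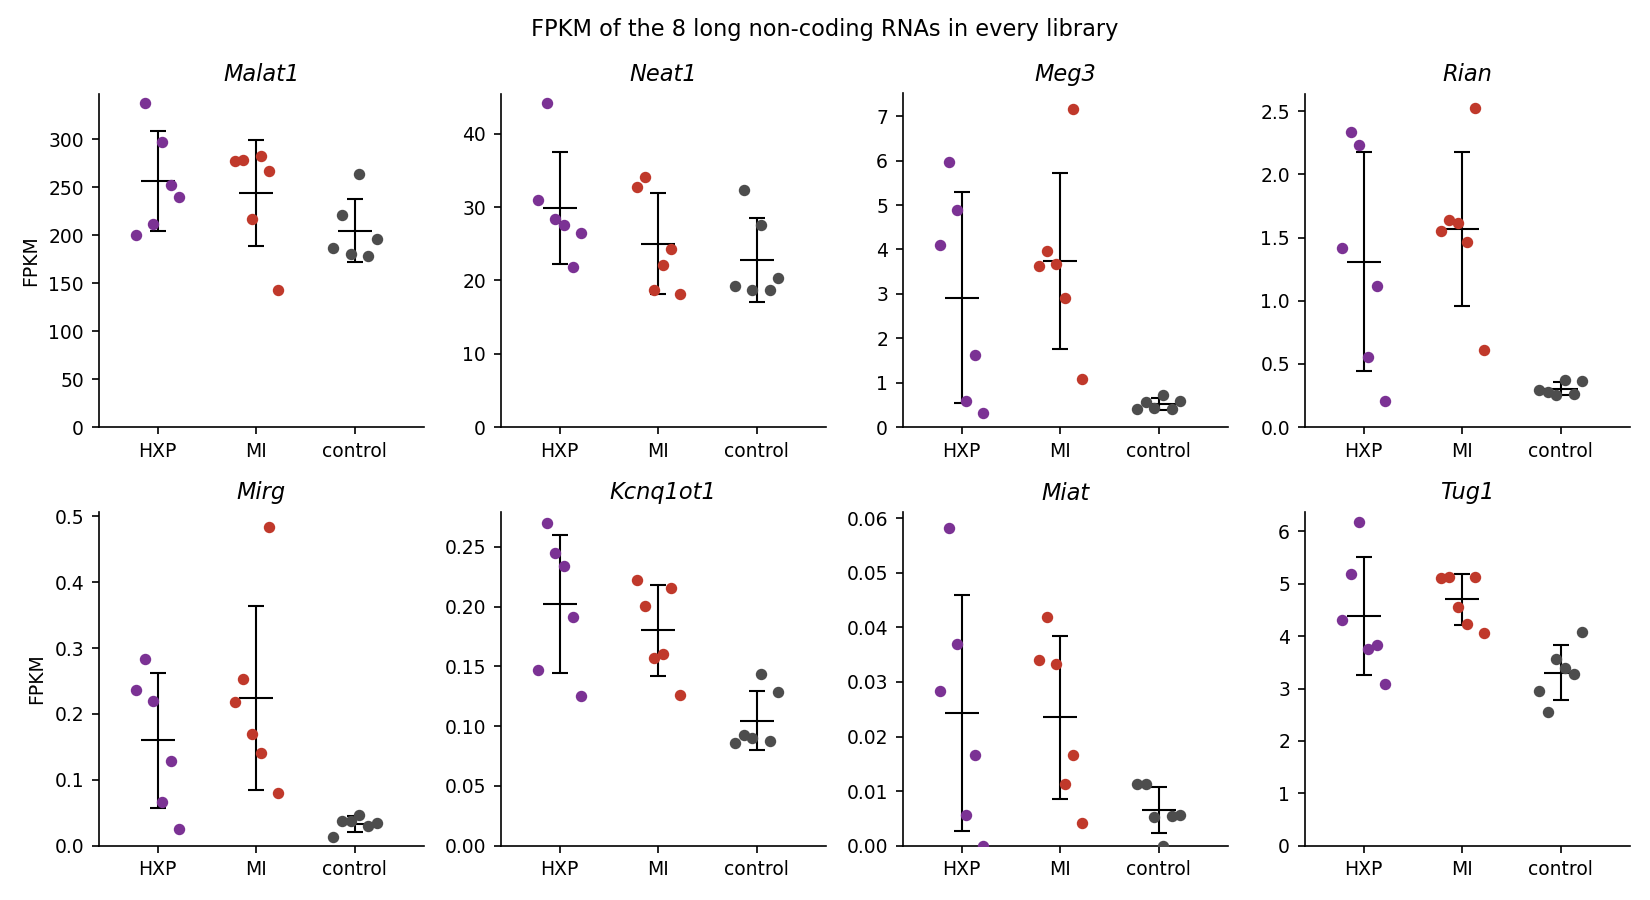
FPKM of each RNA in every library, with 6 points per group (HXP, MI, control from left to right), a horizontal mark at the mean and bars of 1 SD. Each panel has its own linear axis from 0. Meg3, Rian and Mirg have all 6 MI points above all 6 control points, and their HXP points spread from the control level to the MI level.

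MI hearts were set against control hearts to see which RNAs differ after infarction. Meg3, Rian and Tug1 rose in MI hearts, and Malat1 and Neat1 did not pass the test (limma on log2(FPKM + 1), Benjamini-Hochberg adjusted p below 0.05 over 13710 genes). These are 3 of the 5 RNAs tested, all higher, set against a background in which 43.3% of all genes tested were called, 40.1% higher and 3.21% lower, so the count of 3 says little about these RNAs as a set. Among the 571 tested genes with a long non-coding biotype, 18.7% were called higher and 6.13% lower. The median log2 fold change over all genes was 0.27, and the changes below should be read against it. The median of the 5 RNAs was 0.41.

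Meg3 was the RNA with the highest fold change. Its FPKM was 1.08 at the lowest, 3.64 at the median and 7.17 at the highest in MI hearts, against 0.404, 0.502 and 0.715 FPKM in control hearts. Every MI library lay above every control library, which held for 27.9% of all genes tested. The ratio of the group means was 7.16. On the log2(FPKM + 1) scale, which compresses the change of RNAs near 1 FPKM, the fold change was 1.53 (SE 0.37; adjusted p in limma = 0.0143). The highest library was MI 5, which stood apart in lung epithelium markers, and the lowest was MI 6. Over single left-out libraries the fold change ran from 1.35 (without MI 5) to 1.75 (without MI 6).

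Rian, the small nucleolar RNA host downstream of Meg3, had a lowest value of 0.609, a median of 1.58 and a highest of 2.52 FPKM in MI hearts, against 0.254, 0.288 and 0.372 FPKM in control hearts. The groups did not overlap, and MI 5 and MI 6 were again the highest and the lowest MI library. Its log2 fold change was 0.94 (SE 0.22; adjusted p in limma = 0.0139), and the ratio of means was 5.14. GENCODE annotates 13 small nucleolar RNAs and 4 microRNAs inside Rian. Of these 17 only 1 microRNA gene was listed in the files.

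Mirg, the microRNA host at the far end, ran from 0.0806 through a median of 0.194 to 0.483 FPKM in MI hearts, against 0.0125, 0.0356 and 0.0473 FPKM in control hearts. The groups did not overlap here either, on 46 to 273 recovered reads per MI library and 7 to 27 per control library. Mirg is not among the tested genes over which the share of 27.9% was taken. The ratio of means was 6.78. Mirg passed without the filter on low values (log2 fold change by limma 0.24, SE 0.07, adjusted p = 0.0362, where 11.4% of genes were called higher) and in voom on recovered reads with a mean of at least 10 reads (log2 fold change 2.60, SE 0.71, adjusted p = 0.0202, where 31.5% were called higher).

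The 3 RNAs of the Dlk1-Dio3 domain moved together between libraries inside the groups. After each library's deviation from its group mean was taken, Meg3 and Rian had a Pearson r of 0.976 and a Spearman rho of 0.953 over 18 libraries (permutation p = 1e-05 each, the smallest that 100000 permutations can give, adjusted over 4 pairs 4e-05). Leaving out HXP 6 and MI 6, the libraries farthest from the median, gave r = 0.964. Inside each group r was 0.971 in HXP, 0.994 in MI and 0.808 in control hearts, on 6 libraries each. Meg3 and Mirg had an r of 0.904 (rho 0.913, permutation p = 3e-05 for r and 0.00025 for rho, adjusted 6e-05 and 0.0005; r 0.857 without the same libraries). Rian and Mirg had an r of 0.868 (rho 0.841, permutation p = 0.00028 and 0.00074, adjusted 0.000373 and 0.000987; r 0.812 without those libraries), which was 0.311 inside control hearts. The closest of the other genes came as near, with an r of 0.983 between Rgs10 and Meg3 and 0.979 between Anxa1 and Rian. The libraries share depth and composition, so these r and p-values do not single out the domain.

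**Figure D2:**
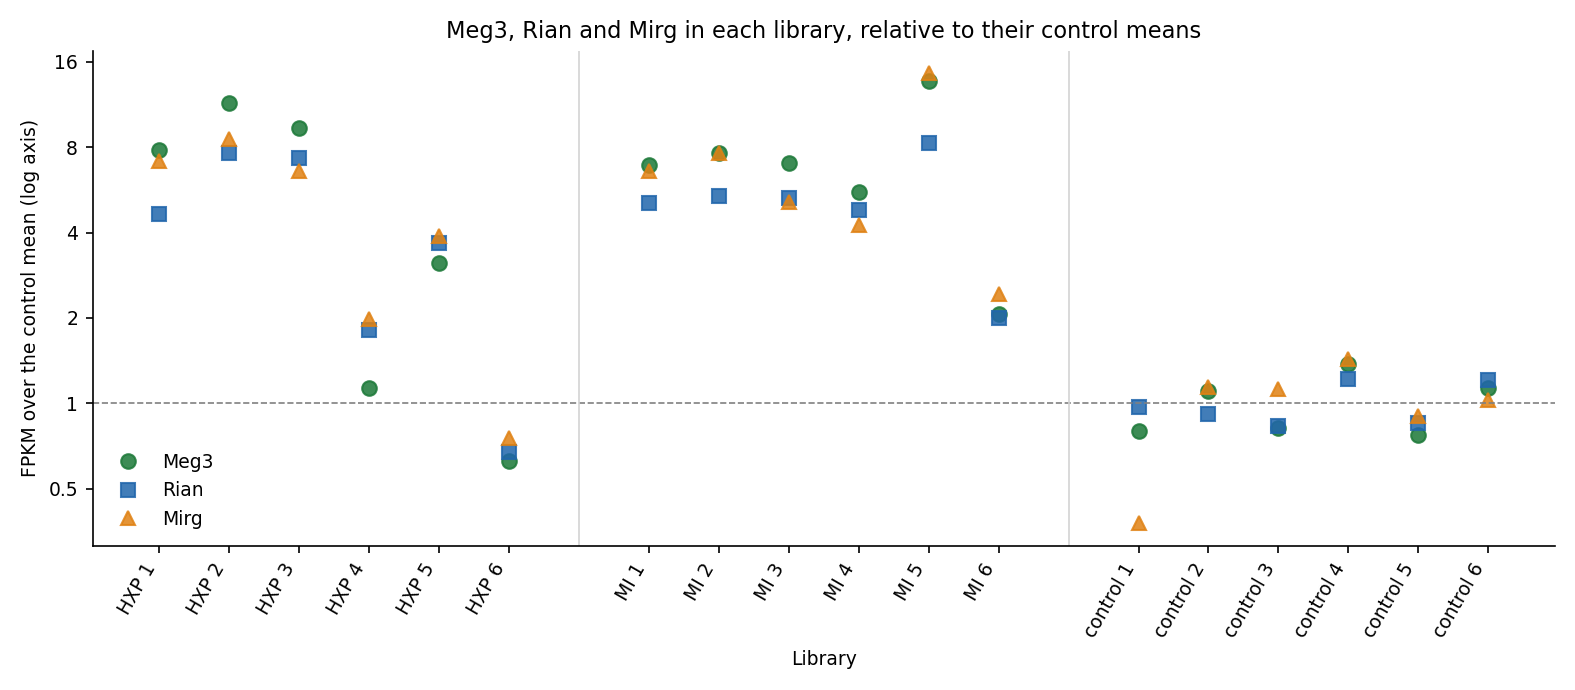
FPKM of Meg3 (circles), Rian (squares) and Mirg (triangles) in each library, divided by the mean of that RNA in control hearts, on a log axis. Libraries stand in the order HXP, MI, control, and the dashed line marks the control mean. In MI 5 all 3 symbols are at their MI maximum, in MI 6 at their MI minimum, and in HXP 6 at their HXP minimum.

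Markers of several other cell types also rose in MI hearts, and some of them followed these RNAs from library to library. The mean log2 level of 10 fibroblast markers, none at 0 in any group, was 3.29 to 7.76 in HXP hearts, 5.50 to 7.64 in MI hearts and 3.99 to 4.45 in control hearts. Among MI libraries the fibroblast markers were highest in MI 5 and lowest in MI 6, as Meg3 and Rian were. The macrophage and monocyte mean (5.10 and 3.38) and the smooth muscle and pericyte mean (5.37 and 4.31) had their extremes in the same MI libraries. The collagen gene Col1a1 averaged 276 ± 204 FPKM in MI hearts and 13.5 ± 2.60 FPKM in control hearts (SD, n = 6 each). All 10 macrophage and monocyte markers and 9 of 10 fibroblast markers rose in MI hearts, with a macrophage mean of 3.38 to 5.10 in MI and 2.91 to 3.24 in control hearts. All 6 mesothelial and epicardial markers also rose, with a mean of 0.102 to 3.67 in HXP hearts, 1.09 to 2.60 in MI hearts and 0.0714 to 0.563 in control hearts, as did 4 of 7 smooth muscle and pericyte markers (3.64 to 5.41, 4.31 to 5.37 and 3.83 to 4.29 in the same order). Of 4 adipocyte markers tested, 1 rose, and the mean of all 6 listed was 4.14 in HXP 3 and 0.0132 in HXP 6. Among MI libraries the mesothelial and epicardial mean did not follow the 3 RNAs, at 1.74 in MI 5 and 1.87 in MI 6. Nor did the adipocyte mean, at 0.259 in MI 5 and 3.30 in MI 3. The part of these cells in the levels of Meg3, Rian and Mirg was not tested. Among genes at 1 FPKM or more other than the 8 RNAs themselves, those whose deviations were most like those of Meg3 were Rgs10 (r = 0.983), Csrp2 (0.970) and Mmp19 (0.969). For Rian, with the 8 RNAs again left out, they were Anxa1 (0.979), Nucb2 (0.978) and Ctsk (0.976). These r values over 18 libraries are descriptions, since the libraries share depth and composition.

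The coding genes of the Dlk1-Dio3 domain were low. Dlk1, Rtl1, Dio3 and Begain averaged at most 0.502 FPKM in any group, and none of the 4 coding genes listed for the domain reached the limit for testing. Dio3, the thyroid hormone deiodinase, had a median of 0.391 FPKM in MI hearts, with a range of 0.176 to 1.32 FPKM, against a median of 0.0445 and at most 0.0582 FPKM in control hearts, and its groups did not overlap. Its partner Dio3os averaged 0.864 FPKM in MI hearts and 0.0641 FPKM in control hearts. Like Dio3, Dlk1 did not overlap, with 0.0316 to 0.170 FPKM in MI hearts and at most 0.0203 FPKM in control hearts. The groups of Dio3os, Rtl1 and Begain did overlap, with 5 MI libraries above all controls for each. Rtl1 averaged 0.0884 FPKM in MI hearts and 0.0208 FPKM in control hearts. Untested, these values are descriptions, and the share of genes this low whose groups do not overlap was not counted. The processed pseudogene Gm3379, which lies between Mirg and Dio3, was higher than Meg3, at 9.38 FPKM in HXP, 11.3 FPKM in MI and 5.62 FPKM in control hearts on average.

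Tug1 rose by less. It ran from 4.06 to 5.14 FPKM with a median of 4.84 in MI hearts, against 2.55 to 4.08 FPKM with a median of 3.33 in control hearts. The groups met at control 6 and MI 6, and 5 of 6 MI libraries lay above all controls. The share of all genes with 5 of 6 MI libraries above all controls was not counted, here and for the RNAs below. The log2 fold change was 0.41 (SE 0.12; adjusted p in limma = 0.0187). It is only a little above the median of all genes, and under quantile normalization it was 0.04 (adjusted p = 0.596) and under median-ratio scaling 0.11 (adjusted p = 0.178), so the call depends on the scaling. The gene most like Tug1 in its deviations was Morc2a (r = 0.982), whose exons overlap those of Tug1 on the other strand. Morc2a had a log2 fold change of 0.40 (SE 0.10; adjusted p in limma = 0.0149) in MI hearts, a call lost under the same scalings as that of Tug1. Ddx3x (r = 0.978) and Ccdc50 (0.969) followed.

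Malat1, the speckle RNA, ranged from 143 to 282 FPKM with a median of 272 in MI hearts, against 179 to 264 FPKM with a median of 192 in control hearts. The groups overlapped, with MI 6 the lowest of all 12 libraries. Its log2 fold change of 0.23 (SE 0.17) was not called (adjusted p = 0.267), and the direction turned under scaling to reads outside mitochondrial genes (-0.011) and under median-ratio scaling (-0.15). Without MI 6 it passed, at 0.38 (adjusted p = 0.0378). Neat1, the paraspeckle scaffold, had 18.1 to 34.1 FPKM with a median of 23.2 in MI hearts, against 18.7 to 32.3 FPKM with a median of 19.8 in control hearts. Its log2 fold change was 0.12 (SE 0.19; adjusted p in limma = 0.609). It ran from 0.026 (without MI 2) to 0.22 (without control 2) over single left-out libraries, and it was -0.18, -0.11 and -0.24 under quantile normalization, scaling outside mitochondrial genes and median-ratio scaling.

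Malat1 and Neat1, neighbours on the chromosome, had deviations with a Pearson r of 0.650 and a Spearman rho of 0.567 (permutation p = 0.00512 and 0.0226, the same after adjustment over 4 pairs, r 0.523 without MI 6 and HXP 2). The Neat1 to Malat1 ratio inside a library had a median of 0.120 in HXP, 0.105 in MI and 0.104 in control hearts. None of the 3 differences of this ratio passed (exact permutation adjusted p from 0.549 to 0.694). The genes most like Malat1 were Snora43 (r = 0.768), Nfil3 (0.718) and Nt5e (0.683), and those most like Neat1 were Crebl2 (0.815), Cxcl14 (0.812) and Adh1 (0.801).

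Kcnq1ot1 ran from 0.126 to 0.222 FPKM with a median of 0.180 in MI hearts, against 0.0860 to 0.143 FPKM with a median of 0.0914 in control hearts. Of the MI libraries 5 of 6 lay above all controls, and MI 6 was the exception. It did not pass without the filter (log2 fold change by limma 0.10, SE 0.03, adjusted p = 0.0543). In voom on recovered reads with a mean of at least 10 reads it passed (0.78, SE 0.21, adjusted p = 0.0202). That voom run called 31.5% of genes higher, with a median log2 fold change of 0.43 over all genes. Kcnq1ot1 was not fitted under the 3 other scalings. Kcnq1, the potassium channel gene that contains it, averaged 7.45 ± 1.50 FPKM in MI hearts and 7.27 ± 0.79 FPKM in control hearts (SD, n = 6 each), with a log2 fold change of 0.016 (SE 0.14; adjusted p in limma = 0.927) that was negative under the 3 other scalings. Cdkn1c, a cell cycle inhibitor of the same domain, had a log2 fold change of -0.10 (SE 0.18; adjusted p in limma = 0.650), which became a call of lower levels under quantile normalization (-0.46, adjusted p = 0.0239) and median-ratio scaling (-0.43, adjusted p = 0.0323). Of the 6 tested coding genes of the Kcnq1 domain, Osbpl5, a lipid transfer protein gene, was the 1 that rose (log2 fold change by limma 1.12, SE 0.27, adjusted p = 0.0143), and none fell, against 1 higher and 2 lower under median-ratio scaling.

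The ratio of Kcnq1ot1 to Kcnq1 was also taken inside each library. Its median was 0.0298 in HXP hearts, 0.0243 in MI hearts and 0.0138 in control hearts. With 0.1 FPKM added to both, about the level of Kcnq1ot1 in control hearts, the log2 ratio was higher by 0.74 in HXP than in control hearts (exact permutation p = 0.00866, adjusted over 18 ratio tests 0.0390). In MI against control hearts it was higher by 0.43 (exact permutation p = 0.0303, adjusted 0.104). The call in HXP against control hearts was lost in 8 of 18 runs with a single library left out. HXP 2 and HXP 3 had the highest ratios, with the lowest Kcnq1 (5.07 and 4.44 FPKM) and highest Kcnq1ot1 among HXP libraries. Without the added 0.1 FPKM the differences were 1.12 and 0.77, both with an adjusted p of 0.0541 by the exact permutation test. That adjustment left out the Miat to Malat1 tests, which could not be computed. The part of unspliced Kcnq1 RNA in the counts of Kcnq1ot1 was not tested.

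**Figure D3:**
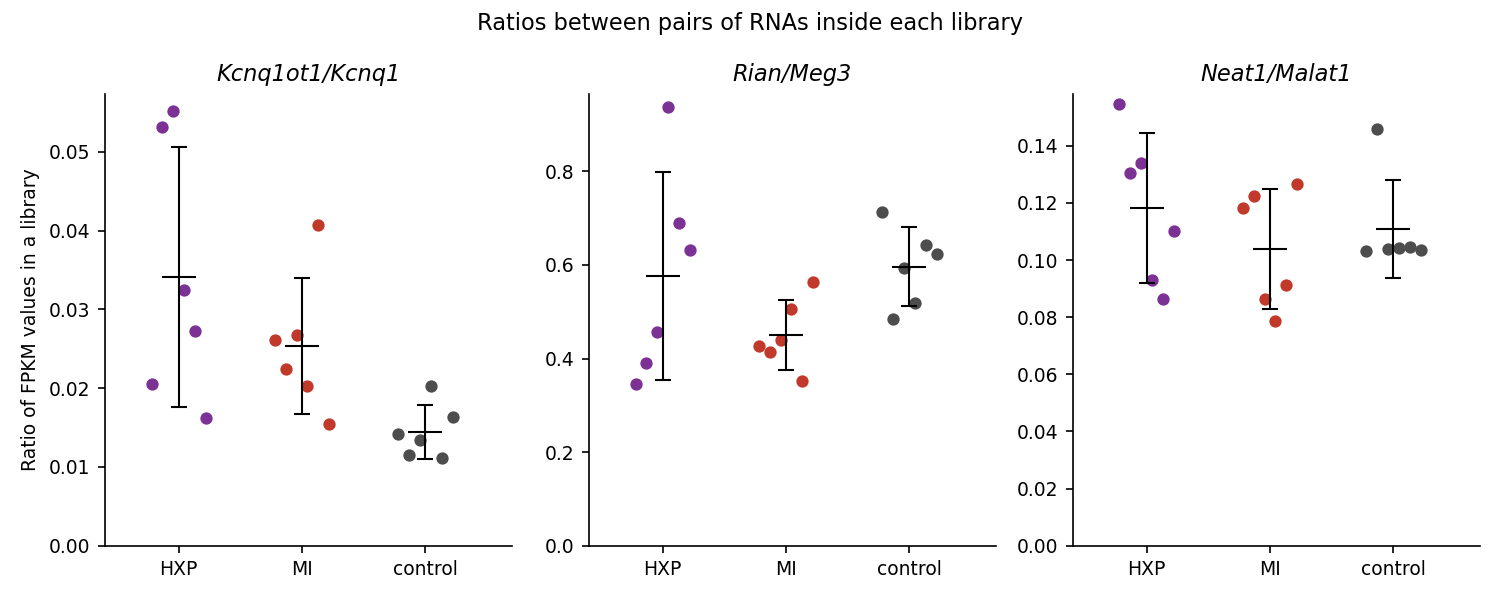
Ratios of FPKM values inside each library, with no value added, for Kcnq1ot1 over Kcnq1, Rian over Meg3 and Neat1 over Malat1. Each panel has 6 points per group (HXP, MI, control from left to right), the mean and bars of 1 SD on a linear axis from 0. The Kcnq1ot1 to Kcnq1 ratio reaches 0.0552 in HXP and 0.0408 in MI hearts, and at most 0.0203 in control hearts.

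Inside the Dlk1-Dio3 domain the ratios among the 3 RNAs depended on the value added before the log. The Rian to Meg3 ratio had a median of 0.434 in MI hearts and 0.609 in control hearts. Its log2 difference was -0.51 with 0.1 FPKM added (exact permutation p = 0.00649, adjusted 0.0390) and -0.41 with none (adjusted 0.0541 by the same exact test). The Mirg to Meg3 ratio had a median of 0.0620 in MI hearts and 0.0658 in control hearts. Its log2 difference of -1.27 with 0.1 FPKM added (exact permutation p = 0.00216, the smallest that 6 against 6 libraries allow, adjusted 0.0195) became -0.02 with none added (adjusted 0.939 by the exact test). That of Mirg to Rian was -0.76 with 0.1 FPKM added (adjusted 0.0195) and 0.38 with none (adjusted 0.700, both by the exact permutation test). The added value is above every Mirg value in control hearts, and the Mirg differences were gone without it. With nothing added, the Miat to Malat1 ratio could not be computed, and 0 of the remaining ratio tests passed after adjustment over those alone.

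Miat was near the floor of the data. It had 3 to 30 recovered reads per library in MI hearts and 0 to 8 in control hearts. The range was 0.00412 to 0.0420 FPKM in MI and 0 to 0.0113 FPKM in control hearts. Of the MI libraries 5 of 6 lay above all controls, but the test did not pass (limma adjusted p = 0.201 without the filter, and adjusted p = 0.170 in voom on recovered reads with a log2 fold change of 1.85, SE 1.06).

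**Figure D4:**
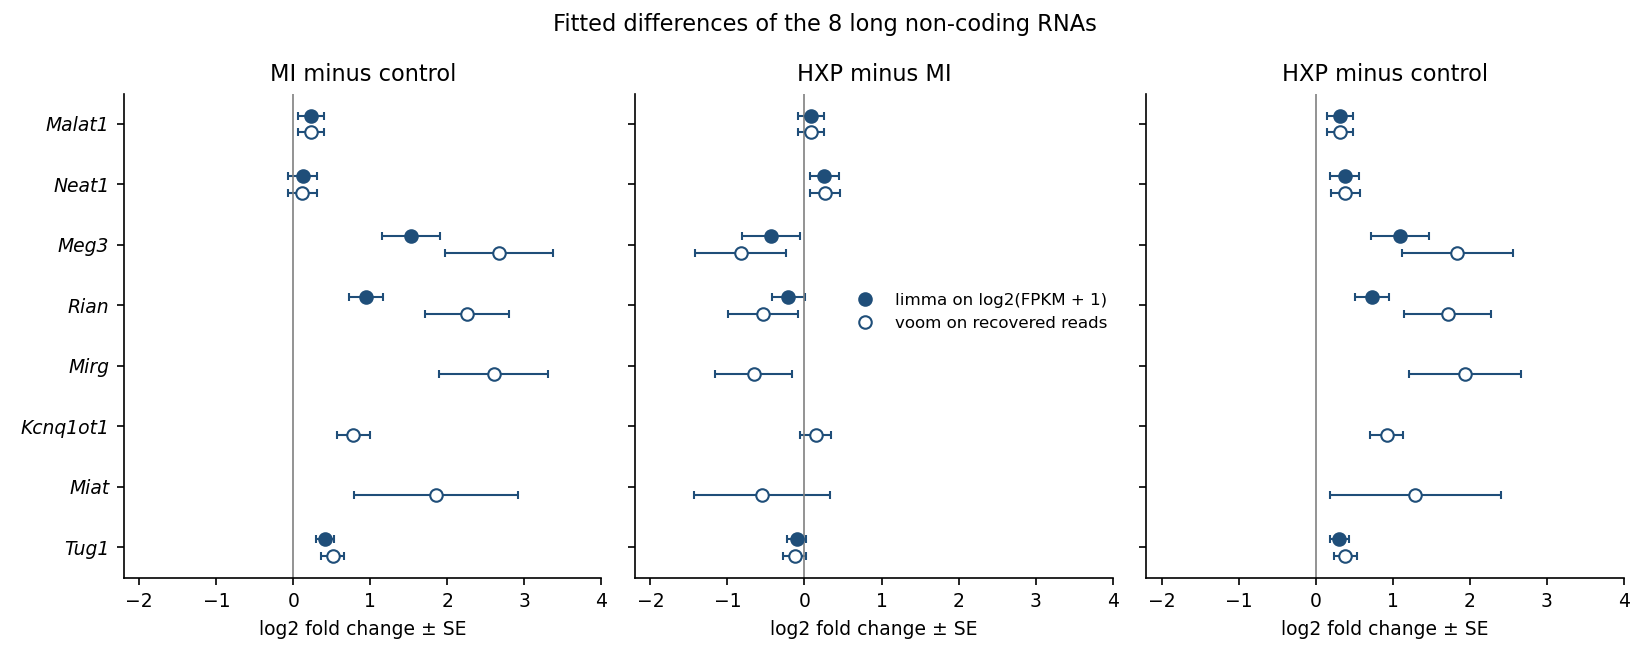
Fitted log2 fold changes with bars of 1 SE for the 3 comparisons. Filled points are limma on log2(FPKM + 1), drawn for the 5 RNAs over the 0.5 FPKM limit, and open points are voom on recovered reads. Meg3, Rian and Mirg have the highest voom values in MI minus control, at 2.67, 2.26 and 2.60, and in HXP minus MI the same 3, Miat and Tug1 are negative.

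The libraries set limits to the MI calls. With MI 4 and MI 5 both left out, no gene of 13710 was called by limma, although 5998 had an unadjusted p under 0.05. Meg3 then stood at 1.35 and Rian at 0.82 (limma adjusted p = 0.0555 each), and Tug1 at 0.42 (0.0588). Within the run of 10 libraries alone, which held 3 control, 5 MI and 2 HXP libraries, Meg3 stood at 1.30 (limma adjusted p = 0.0617), Rian at 0.81 (0.0595) and Tug1 at 0.26 (0.135). The other runs held 2 control and 1 MI library, and 1 control and 4 HXP libraries, too few for a value of their own. With the run as a covariate the 3 RNAs passed (limma adjusted p = 0.0309, 0.0309 and 0.0442). MI 1 and MI 2 were the most alike pair inside any group. Their recovered reads differed by a chi-square per degree of freedom of 26.1, and the next closest pair, control 3 and control 6, by 54.9. With MI 1 and MI 2 averaged into 1 library, limma still called 3 of the 5 RNAs.

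**Figure D5:**
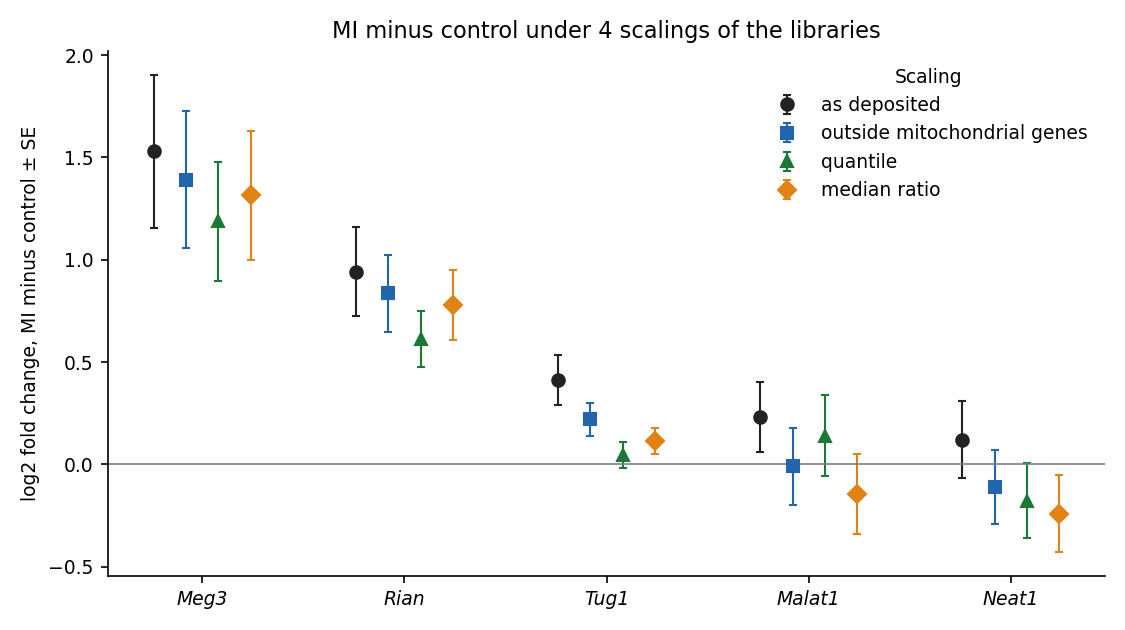
Log2 fold change of MI minus control with bars of 1 SE for the 5 RNAs tested, under the deposited scaling and 3 others. Meg3 stays between 1.19 and 1.53 and Rian between 0.61 and 0.94, while Tug1 falls toward 0 and Malat1 and Neat1 lie on both sides of it.

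Other genes known to work with these RNAs, and other genes of their kind, were counted in MI against control. The counts below stand beside 40.1% of all tested genes called higher, and none was tested as a set. The list of 20 paraspeckle proteins had 12 members that rose and 0 that fell, with a median log2 fold change of 0.29, close to the 0.27 of all genes. Under quantile normalization 3 rose and 3 fell, and under median-ratio scaling 3 rose and 1 fell, with medians of -0.03 and -0.04. Nono averaged 21.5 ± 2.87 FPKM in MI hearts and 14.2 ± 1.09 FPKM in control hearts (SD, n = 6 each, log2 fold change by limma 0.56, SE 0.13, adjusted p = 0.0139). Sfpq rose by 0.48 (SE 0.12, adjusted p = 0.0147), a call that quantile normalization and median-ratio scaling ended (adjusted p = 0.147 and 0.235). Taf15 and Cpsf7 rose by 0.58 and 0.52.

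Of 20 nuclear speckle and splicing genes, 9 rose and 0 fell (median 0.36), and 1 rose and 2 fell under quantile normalization and under median-ratio scaling. The kinase genes Clk4 and Clk1, whose products phosphorylate splicing factors, rose by 0.44 and 0.49 (limma adjusted p = 0.0146 and 0.0151), with the call of Clk4 lost under both those scalings and that of Clk1 under all 3 other scalings. Acin1 rose by 0.53 and Srrm1 by 0.39, the call of Srrm1 being lost under all 3 other scalings. Of 9 tested subunit genes of PRC2, the histone methyltransferase complex that several long non-coding RNAs bind, 3 rose (Ezh1, Ezh2 and Rbbp4, by 0.23, 0.25 and 0.23), and none of the 9 rose under the other scalings, where Suz12 fell under each (-0.60, -0.44 and -0.55 under quantile normalization, scaling outside mitochondrial genes and median-ratio scaling; adjusted p in limma = 0.0199, 0.0356 and 0.0189) and Mtf2 also under quantile normalization.

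Of 17 other imprinted genes tested, 11 rose and 0 fell (median 0.39), against 6 higher and 2 lower under median-ratio scaling. Peg3, a zinc finger protein gene read from the paternal copy, averaged 2.08 ± 0.60 FPKM in MI hearts and 0.639 ± 0.21 FPKM in control hearts (SD, n = 6 each, log2 fold change by limma 0.90, SE 0.18, adjusted p = 0.0139). Grb10, a growth factor receptor adaptor, rose by 0.66, Mest by 1.00 and Sgce, the epsilon sarcoglycan of the membrane, by 0.80. The calls of these 4 genes also passed under the 3 other scalings. H19, an imprinted long non-coding RNA, had 7.41 ± 3.28 FPKM in MI hearts and 3.60 ± 1.58 FPKM in control hearts (SD, n = 6 each). It passed narrowly (log2 fold change by limma 0.85, SE 0.33, adjusted p = 0.0489) and did not under the other scalings. Its neighbour Igf2 did not pass (0.27, SE 0.24, adjusted p = 0.350).

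Of 12 other tested nuclear or regulatory long non-coding RNAs, 5 rose and 0 fell, with a median of 0.45. Gas5, a host of small nucleolar RNAs, averaged 8.08 ± 2.44 FPKM in MI hearts and 3.39 ± 0.30 FPKM in control hearts (SD, n = 6 each, log2 fold change by limma 1.01, SE 0.22, adjusted p = 0.0139). Snhg12 and Snhg1, also hosts, rose by 0.78 and 0.45, and Firre, an X-linked nuclear RNA, by 0.47. Gas5 and Snhg12 passed under the 3 other scalings, and the calls of Snhg1 and Firre were lost under quantile normalization and median-ratio scaling. Xist had at most 0.0585 FPKM in any library.

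The genes near the 8 RNAs on the chromosome moved both ways. Of 12 tested, 5 rose and 2 fell, and under quantile normalization 1 rose and 2 fell. Ltbp3, a TGF-beta binding matrix protein gene near Malat1, rose by 2.08 (SE 0.54; adjusted p in limma = 0.0149). Osbp2 near Tug1 had a log2 fold change of -0.55 (SE 0.14, adjusted p = 0.0146), and Crybb1 near Miat one of -0.41 (SE 0.11, adjusted p = 0.0147).

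HXP hearts were set against MI hearts to see which RNAs differ with the treatment. None of the 5 RNAs passed. In the background limma called 0 of 13710 genes, 0% of them, with 1891 at an unadjusted p under 0.05, and voom on recovered reads also called 0. Meg3 in HXP hearts had 4.10, 5.96, 4.88, 0.593, 1.62 and 0.325 FPKM in libraries 1 to 6, against 3.62, 3.97, 3.66, 2.90, 7.17 and 1.08 FPKM in MI hearts. Thus 3 HXP libraries lay inside the MI range above the MI median, and HXP 4 and HXP 6 lay under every MI library. The log2 fold change was -0.44 (SE 0.37; adjusted p in limma = 0.562), and without single libraries it ran from -0.66 (without HXP 2) to -0.18 (without HXP 6).

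Rian showed the same split, with 1.42, 2.33, 2.23, 0.555, 1.12 and 0.206 FPKM in HXP libraries 1 to 6, against 0.609 to 2.52 FPKM in MI hearts. Its log2 fold change was -0.21 (SE 0.22; adjusted p in limma = 0.628), running from -0.34 (without MI 6) to -0.039 (without HXP 6). Mirg had a median of 0.174 FPKM and a range of 0.0250 to 0.283 in HXP hearts, against a median of 0.194 in MI hearts. HXP 4 and HXP 6 were the HXP libraries under all MI libraries for all 3 RNAs. The fibroblast marker means of HXP 4 and HXP 6 were 5.35 and 3.29, those of HXP 2 and HXP 3 were 6.97 and 7.76, and Col1a1 had 2.29 FPKM in HXP 6 and 345 FPKM in HXP 3. Macrophage and monocyte means split likewise (3.45 and 2.42 against 5.03 and 5.29). Smooth muscle and pericyte means did too (3.96 and 3.64 against 5.41 and 5.18), as did mesothelial and adipocyte means. Cardiomyocyte means went the other way (9.31 and 9.15 against 8.99 and 8.70). Mitochondrial reads were 38.9% and 45.5% in HXP 4 and HXP 6, against 27.3% and 20.5% in HXP 2 and HXP 3. The part of cell types or of the mitochondrial share in this split was not tested.

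The differences of the other RNAs between HXP and MI hearts did not pass. Neat1 averaged 29.9 ± 7.59 FPKM in HXP hearts and 25.0 ± 6.91 FPKM in MI hearts (SD, n = 6 each, log2 fold change by limma 0.26, SE 0.19, adjusted p = 0.507). Malat1 had a log2 fold change of 0.09 (SE 0.17, adjusted p = 0.803), and Tug1 of -0.10 (SE 0.12, adjusted p = 0.671), which ran from -0.19 (without HXP 3) to -0.027 (without HXP 6). Kcnq1ot1 averaged 0.202 FPKM in HXP hearts and 0.180 FPKM in MI hearts, and 3 HXP libraries lay above all MI libraries. No list named above had a member that passed.

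The comparison of HXP with control shares its HXP libraries with the comparison with MI and its controls with that of MI, so the 3 are not independent. None of the 5 RNAs passed, where limma called 43 genes (0.314%), 13 higher (0.0948%) and 30 lower (0.219%). Voom on recovered reads called 0.0107% of genes higher and none of the 8 RNAs. Meg3 averaged 2.91 ± 2.38 FPKM in HXP hearts and 0.522 ± 0.13 FPKM in control hearts (SD, n = 6 each). The fitted log2 difference was 1.09 (SE 0.37; adjusted p in limma = 0.0963), and 4 of 6 HXP libraries lay above all controls while HXP 6 lay under all of them. All HXP libraries lay above all controls for 1.13% of genes, and for none of the 8 RNAs. Rian had a log2 fold change of 0.73 (SE 0.22, adjusted p = 0.0881) with 5 of 6 HXP libraries above all controls, and Mirg also had 5 of 6. The share of all genes with 4 or 5 of 6 HXP libraries above all controls was not counted.

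This comparison turned on library HXP 6. Without it Meg3 (1.35, limma adjusted p = 0.0188), Rian (0.90, 0.0135) and Tug1 (0.38, 0.0261) passed, among 4236 called genes in place of 43. Rian also passed with all libraries under quantile normalization, scaling outside mitochondrial genes and median-ratio scaling (limma adjusted p = 0.0265, 0.0422 and 0.0337), where between 1011 and 1270 genes were called. Tug1 with all libraries had 0.31 (SE 0.12, adjusted p = 0.112), Neat1 0.38 (SE 0.19, adjusted p = 0.167) and Malat1 0.32 (SE 0.17, adjusted p = 0.193). Kcnq1ot1 had 5 of 6 HXP libraries above all controls, with a voom log2 fold change of 0.92 (SE 0.21, adjusted p = 0.0713). Miat averaged 0.0243 FPKM in HXP hearts and 0.00649 FPKM in control hearts, on 0 to 42 and 0 to 8 recovered reads per library. Of the genes in the lists above, Crybb1 was the 1 that passed against control (log2 fold change -0.72, adjusted p = 0.0174 by limma).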

How the data were processed

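Heart RNA was sequenced after ribosomal RNA was depleted, per the labels' protocols. The authors deposited 1 FPKM table per library. The unit was inferred from the values, and the aligner, counter, annotation and use of strand are not named by the labels or headers. The submitters' processing notes name GRCm38 and limma without a role. The 34150 IDs were matched to GENCODE M21 (34097 matched, 53 not). Reads were recovered from the steps of the FPKM values: in each library 98.1% to 98.7% of low values were whole within 0.1 read.

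The 13710 genes averaging 0.5 FPKM or more were fitted as log2(FPKM + 1) in limma 3.58.1 (R 4.3.3, trend on, robust off) with 3 groups of 6, two-sided, Benjamini-Hochberg adjusted p below 0.05. Log2 fold changes are differences on that scale. Ratios inside a library used exact permutation tests over all regroupings, with 0.1 FPKM added, with Benjamini-Hochberg adjustment over 18. Voom, in limma, was run on recovered reads. The fit was tested on simulated data. Members and lists were chosen with earlier results of these data known. Named genes were the 8 RNAs, the 3 genes most like each tested one, up to 4 per list by p in MI minus control, and Kcnq1, Cdkn1c, Dlk1, Rtl1, Sfpq, Nono, Xist, H19 and Igf2. Dio3, Dio3os, Begain, Gm3379, Suz12, Mtf2 and Col1a1 were added after their values were seen. Alternatives covered scaling, filters, pseudocount, a robust prior, batch terms and left-out libraries. Those chosen after seeing the data were voom with a mean of at least 10 reads, no filter with a pseudocount of 0.1, averaging MI 1 and MI 2, leaving out HXP 5 and HXP 6, and the run of 10 libraries alone. Python 3.11.15 and matplotlib 3.10.9 drew the figures.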

Additional observations from a re-analysis of the deposited data

How the results depend on the processing

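Counts of called genes moved as follows, beside 5934 in MI minus control, 0 in HXP minus MI and 43 in HXP minus control. In MI minus control the count was 2292 at a mean of at least 5 FPKM, 0 without MI 4 and MI 5, and 79 in the run of 10 libraries. It ran from 2656 (without MI 5) to 6972 over single left-out libraries, and was 3892 without control 2. The 5494 higher and 440 lower calls became 1810 and 2371 under quantile normalization, 3095 and 1283 under scaling outside mitochondrial genes, and 2395 and 2067 under median-ratio scaling. In HXP minus MI limma called 4, 1 and 5 genes under these scalings and 3 in the run of 10 libraries, and 0 to 71 without single libraries (71 without HXP 1). In HXP minus control it called 1231, 1011 and 1270 under the scalings, 0 without the filter, 85 at a mean of at least 5 FPKM, 103 with a pseudocount of 0.1, 5 in the 12 libraries compared, 0 with the run as a covariate, 15 with voom and 11 with voom at 10 reads. It called 20 without MI 4 and MI 5, 16 with MI 1 and MI 2 averaged, 5967 without HXP 5 and HXP 6, 3 in the run of 10 libraries, 0 with no filter and a pseudocount of 0.1, and 0 to 4236 without single libraries (291 without HXP 1, 4236 without HXP 6, at most 62 without any other).

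Of the RNAs themselves, 3 passed in MI minus control, against 0 at a mean of at least 5 FPKM, which removes Meg3, Rian and Tug1, 5 with voom at 10 reads, which tests all 8, 0 without MI 4 and MI 5 and 0 in the run of 10 libraries, and 3 to 4 without single libraries. In HXP minus MI 0 passed in all settings run. In HXP minus control 0 passed, but 1 under each of the 3 scalings, 3 without HXP 5 and HXP 6, and 0 to 3 without single libraries. Log2 fold changes that turned were, in MI minus control, Malat1 at -0.011 and -0.15 (scaling outside mitochondrial genes, median-ratio scaling) and Neat1 at -0.18, -0.11 and -0.24 (those and, first, quantile normalization). In HXP minus MI they were Meg3 at 0.14 and Rian at 0.19 in the run of 10 libraries, Rian at 0.011 and Tug1 at 0.025 without HXP 5 and HXP 6, Tug1 at 0.076 under quantile normalization and 0.026 under median-ratio scaling, and Miat at -0.55 with voom and -0.000216 with no filter and a pseudocount of 0.1. Malat1 in HXP minus MI ran from -0.059 to 0.15 without single libraries. Of 18 ratio tests 4 passed, and 2 to 6 without single libraries, while 0 of those that could be computed with nothing added passed. With nothing added Mirg over Meg3 turned to 0.13 in HXP minus control, and Mirg over Rian to 0.38 in MI minus control, -0.13 in HXP minus MI and 0.26 in HXP minus control. Without single libraries the log2 ratio of Miat over Malat1 ran from -0.12 to 0.054 in MI minus control and from -0.17 to 0.012 in HXP minus MI, Mirg over Rian in HXP minus MI from -0.056 to 0.26, and Neat1 over Malat1 in HXP minus control from -0.011 to 0.16. Miat over Malat1 could not be computed with nothing added, because some libraries have 0 Miat reads. The causes were not tested.

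Same-numbered libraries of different groups had correlations of deviations from -0.31 to 0.64, and 5 of 18 pairs were over 0.1. Differently numbered libraries ran from -0.72 to 0.55. Whether the numbers pair the libraries was not tested. With the replicate number as a block limma called 5610 genes in MI minus control, 1 in HXP minus MI and 1 in HXP minus control, and no call of the 5 RNAs changed: 3, 0 and 0 passed.

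Depth limits Miat, at 0 to 42 recovered reads, and Mirg, at 7 to 273. No RNA had a library set apart from its group of 6 by Dixon's test.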
